A study of Homo sapiens with 2 samples.

Results

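The cyclin-dependent kinase inhibitors were measured after knockdown of SUB1 in PC3 cells, to describe which of these brakes on the cell cycle had a different mRNA level when SUB1 was reduced. SUB1 encodes a transcriptional coactivator that binds single-stranded DNA, and PC3 is an established line derived from a prostate cancer metastasis. The genes were chosen by name, as the spots whose gene symbol was CDKN1A, CDKN1B, CDKN1C, CDKN2A, CDKN2B, CDKN2C, CDKN2D or CDKN3. All 8 genes were found under their current symbols, on 12 of the 41000 probes of the array, and all 8 were among the 19218 genes that passed the filter on dim signals. There were 2 dual-colour arrays of the same slide. On each, RNA of PC3 cells given Non-T siRNA, the non-targeting control duplex, was labelled with Cy3, and RNA of PC3 cells given a duplex against SUB1 was labelled with Cy5. One array held SUB1 siRNA 1 and the other SUB1 siRNA 2, so that each siRNA was measured once. All cells were transfected again 24 h after the first transfection and harvested at 72 h. The dyes were not swapped, so that dye and knockdown cannot be told apart, and whether both arrays carried the same Non-T RNA was not given in the sources used here.

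Progression through the cell cycle is driven by kinases that are active only when bound to a cyclin, and the inhibitors act on these complexes. The CIP/KIP proteins p21 (CDKN1A), p27 (CDKN1B) and p57 (CDKN1C) bind cyclin and kinase together and chiefly restrain the kinases that bring cells into and through S phase. The INK4 proteins p16 (CDKN2A), p15 (CDKN2B), p18 (CDKN2C) and p19 (CDKN2D) bind CDK4 and CDK6 and keep D-type cyclins away, which leaves the retinoblastoma protein free to repress E2F targets. CDKN3 is different in kind: it encodes a phosphatase that removes an activating phosphate from CDK2 and CDK1, and its mRNA is known to be high in dividing cells.

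The promoters of the genes with the highest and lowest mean ratios over both arrays are shown first. They were picked by these ratios, and the letters upstream of genes whose signals lay in opposite directions are set side by side as description. Each promoter is the 250 bases before the start listed by RefSeq (GRCh38.p14), 5′ to 3′ on the strand of the gene. Capitals mark CHR elements (TTTGAA), which are bound in cell-cycle genes by the MuvB complex, CCAAT boxes (CCAAT), which are bound by NF-Y, and GC boxes (GGGCGG), which are bound by Sp1, on either strand. CCAAT and GC boxes were added to the search after the sequences had been read, and neighbouring GC boxes may share bases. The windows are chr6:36678464-36678713 (plus strand) for CDKN1A, chr12:12717118-12717367 (plus strand) for CDKN1B, chr19:10568980-10569229 (minus strand) for CDKN2D and chr14:54396757-54397006 (plus strand) for CDKN3.
CDKN1A: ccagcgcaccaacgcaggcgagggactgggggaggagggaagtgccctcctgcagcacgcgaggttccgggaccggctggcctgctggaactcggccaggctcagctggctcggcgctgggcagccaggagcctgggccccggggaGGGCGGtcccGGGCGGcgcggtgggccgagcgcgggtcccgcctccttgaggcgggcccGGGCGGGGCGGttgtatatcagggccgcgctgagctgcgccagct
CDKN1B: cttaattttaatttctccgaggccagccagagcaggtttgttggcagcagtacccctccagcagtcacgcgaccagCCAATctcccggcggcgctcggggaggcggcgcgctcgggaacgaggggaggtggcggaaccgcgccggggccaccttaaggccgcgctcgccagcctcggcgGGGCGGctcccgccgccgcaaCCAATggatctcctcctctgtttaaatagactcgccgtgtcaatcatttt
CDKN2D: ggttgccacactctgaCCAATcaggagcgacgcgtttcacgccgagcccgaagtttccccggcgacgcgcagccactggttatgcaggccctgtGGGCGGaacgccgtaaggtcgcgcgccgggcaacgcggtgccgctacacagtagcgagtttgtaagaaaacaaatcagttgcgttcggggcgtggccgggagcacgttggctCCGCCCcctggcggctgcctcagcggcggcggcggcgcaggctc
CDKN3: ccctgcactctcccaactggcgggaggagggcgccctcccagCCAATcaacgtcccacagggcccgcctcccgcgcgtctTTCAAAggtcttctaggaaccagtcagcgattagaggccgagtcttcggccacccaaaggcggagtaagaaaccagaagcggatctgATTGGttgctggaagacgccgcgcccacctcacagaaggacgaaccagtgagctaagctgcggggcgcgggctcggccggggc

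The promoter of CDKN3 held a CHR element on the minus strand, whose first base lay at -170 from the start, between CCAAT boxes at -208 and -83. No other window of a member held the CHR letters, which occur in 13.3% of the 35116 promoter windows listed. The promoter of CDKN1B held 2 CCAAT boxes and 1 GC box, that of CDKN1A held 4 GC boxes, and that of CDKN2D held 1 CCAAT box and 2 GC boxes. CCAAT occurs in 32.0% and GGGCGG in 42.6% of all windows. E2F letters (TTTGGCGC, TTTCCCGC, TTTGGCGG or TTTCGCGC, in 2.83% of all windows) and forkhead letters (TGTTTAC, in 2.98%) were matched in no window of a member. CDKN2A is listed with 2 windows and CDKN2C with 3, and CDKN1C is not among them. A match of letters is a description of these windows only.

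Ratios are given as log2 of the signal with SUB1 siRNA over that with Non-T siRNA, so that 1 is a 2-fold increase. The targeted gene came first. On its brightest probe SUB1 stood at -3.30 for siRNA 1 and at -3.26 for siRNA 2, and its other 3 probes lay between -1.57 and -3.75. The mean over both arrays was tested against 0 with limma and adjusted by Benjamini-Hochberg over all 19218 genes. Limma draws the variance of each gene towards that of all genes, and each SE given below is this moderated one. SUB1 had an adjusted p of 0.0248 and was the only gene under 0.05 (0.0052% of the genes tested). At an unadjusted p under 0.05 there were 4013 genes, 20.9% of those tested, and 6 of the 8 inhibitors, all but CDKN2A and CDKN2C. No inhibitor passed the adjusted threshold, and the values below are therefore described with their spread. The epithelial markers KRT8, KRT18, KRT19 and EPCAM were well above background in all channels on every probe, and of 3 probes for KLK3, which encodes prostate-specific antigen, 1 was well above background in all channels and 1 in none. Whether the bright probe reports KLK3 was not tested.

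CDKN1B had the highest ratio of the 8 genes with either siRNA and CDKN3 the lowest. CDKN1B was 2.31-fold higher with siRNA 2 and CDKN3 was 3.08-fold lower, and with siRNA 1 neither reached 2-fold. RNA came from whole cultures, so that a different share of cells in a phase of the cycle and a different level in each cell cannot be told apart. Among all genes, a 2-fold increase or more was seen for 40 with siRNA 1 (0.208%) and a decrease of that size for 117 (0.609%), and none of the 8 inhibitors was among them. With siRNA 2 the increases numbered 118 (0.614%) and the decreases 205 (1.07%), and 1 of the 8 inhibitors was found in each direction. Increases on both arrays numbered 10 (0.052%) and decreases 27 (0.14%), none of them an inhibitor. The split of these calls depends on the processing: higher genes were 25.5% of the calls with siRNA 1 and 36.5% with siRNA 2, but 71.0% and 72.5% where arrays were centred on the median without loess, and 82.1% and 78.2% from the scanner software's processed signals, which differ in background correction and in dye normalization. Under these alternatives the median of all genes moved from 0.02 with either siRNA to 0.13 and 0.12, and to 0.14 and 0.17. Measured from the median of all genes, each inhibitor kept its side with each siRNA under all 10 treatments of the signals. The reported treatment is among these, and those that change only the filter left the inhibitors' own ratios as they were. With siRNA 1, CDKN2A lay only 0.026 from the median with the processed signals and where probes were averaged. CDKN1A with siRNA 1 lay 0.071 from it where probes were averaged. How many of all genes kept their side was not counted.

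**Figure D1:**
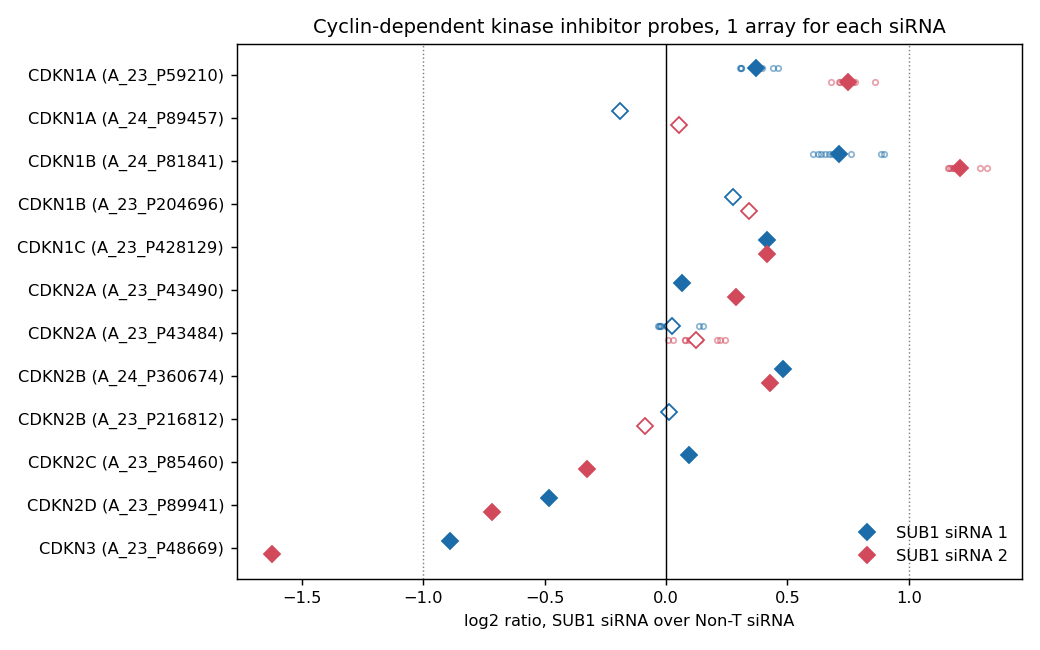
Log2 ratio of SUB1 knockdown to Non-T control (horizontal axis) for the 12 probes of the 8 genes. Diamonds are probe values, filled for the probe that stands for its gene, small circles are single spots of probes printed 10 times, and dotted lines mark 2-fold. CDKN1B reached 1.21 and CDKN3 -1.62 with siRNA 2. The second probes of CDKN1A, CDKN1B, CDKN2A and CDKN2B lay nearer to 0 than the first.

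Among the CIP/KIP genes, CDKN1B (NM_004064) encodes p27, an inhibitor that accumulates in resting cells. Its probe A_24_P81841 (hg18 chr12:12766207-12766266) was printed 10 times. With siRNA 1 the log2 ratios of its spots ran from 0.61 through a median of 0.68 to 0.90, with a mean of 0.71 (SD 0.10 among 10 spots). With siRNA 2 they ran from 1.16 through a median of 1.19 to 1.32, with a mean of 1.21 (SD 0.055 among 10 spots). All spots were thus above 0 on both arrays, and every spot with siRNA 2 lay above every spot with siRNA 1, although spots of 1 array share their RNA and are not replicates of the knockdown. The mean over both arrays was 0.96 ± 0.15 (SE, n = 2), with an adjusted p of 0.113 in limma's test. The gene ranked 208 from the highest of 19218 with siRNA 1 and 43 with siRNA 2. A second probe, A_23_P204696 (hg18 chr12:12762386-12762445), which starts 3821 bp before the first, had lower ratios of 0.27 with siRNA 1 and 0.34 with siRNA 2. It was the dimmer probe, with raw Cy3 signals of 169 and 141 against 427 and 369, and both probes were above 0 on both arrays. Where both probes were averaged, the ratio with siRNA 2 was 0.78 and no longer 2-fold.

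CDKN1A (NM_000389) encodes p21, which arrests cells after damage and during senescence. The spots of its probe A_23_P59210 (hg18 chr6:36762684-36762743) ran from 0.30 to 0.46 with siRNA 1 (mean 0.37, SD 0.060, 8 spots after 2 outlier spots were left out). With siRNA 2 they lay between 0.68 and 0.86 (mean 0.75, SD 0.048, 10 spots). The spots of the arrays did not overlap, and those of siRNA 2 were the higher. The mean was 0.56 ± 0.13 (SE, n = 2, limma adjusted p = 0.144). The gene was thus 1.29-fold and 1.68-fold higher. The other probe of CDKN1A, A_24_P89457 (NM_078467, hg18 chr6:36760156-36760215), was not well above background in the Cy3 channel of either array, with raw signals of 106 and 101, and its measured ratios of -0.19 and 0.06 are given without a fold.

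CDKN1C (NM_000076) encodes p57, an imprinted inhibitor that is prominent in development. Its 1 probe, A_23_P428129 (hg18 chr11:2861479-2861538), had a ratio of 0.42 with each siRNA, a 1.33-fold and a 1.34-fold higher signal. The difference between the siRNAs was 0.0027, smaller than the typical SD of 0.11 between the arrays over all genes. The mean was 0.42 ± 0.094 (SE, n = 2, limma adjusted p = 0.141). The SD of its own 2 values was 0.0019, so that this SE comes mostly from the spread of other genes. All 3 CIP/KIP genes were thus higher with both siRNAs on the probe that stood for the gene, as were 38.1% of all genes, and none passed the test.

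The INK4 genes did not share a direction. CDKN2B (NM_078487), which encodes p15 and is known as a gene induced by TGF-beta, had 0.48 with siRNA 1 and 0.43 with siRNA 2 on A_24_P360674 (hg18 chr9:21994945-21995004), with a mean of 0.45 ± 0.095 (SE, n = 2, limma adjusted p = 0.136). Its dimmer probe A_23_P216812 (NM_004936, hg18 chr9:21998979-21999038), 4034 bp away, had 0.013 and -0.087. The raw Cy3 signals of this probe were 131 and 108, against 278 and 244 on the brighter one. The offset of the background correction shrinks the ratios of dim probes. The higher signal of CDKN2B was thus seen on 1 of its 2 probes, and the dimness of the other limits what it can show.

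CDKN2A encodes p16 and, from another reading frame, the protein ARF. Its probes start 259 bp apart, both listed for NM_058197. The brighter, A_23_P43490 (hg18 chr9:21958039-21958098), had 0.07 with siRNA 1 and 0.29 with siRNA 2, with a mean of 0.18 ± 0.11 (SE, n = 2, limma adjusted p = 0.404). The other, A_23_P43484 (hg18 chr9:21957780-21957839), was printed 10 times and had a mean of 0.024 (SD 0.067) and 0.12 (SD 0.080). On that probe the spots lay between -0.031 and 0.15 with siRNA 1 and between 0.010 and 0.24 with siRNA 2, so that the arrays overlapped. With siRNA 1, 57.4% of all genes had a lower ratio than CDKN2A, and with siRNA 2 it was 84.6%.

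CDKN2C (NM_001262, hg18 chr1:51212781-51212840), which encodes p18, was the 1 gene of the 8 with opposite signs: 0.10 with siRNA 1 and -0.33 with siRNA 2. The mean was -0.11 ± 0.14 (SE, n = 2, limma adjusted p = 0.662), and it turned to 0.14 under median centring and 0.0082 with the processed signals. CDKN2D (NM_001800, hg18 chr19:10538226-10538285), which encodes p19 and is known to peak in S phase, was lower with both siRNAs, at -0.48 and -0.71, or 71.6% and 60.9% of the signal with Non-T siRNA. Its mean was -0.60 ± 0.11 (SE, n = 2, limma adjusted p = 0.122). The INK4 genes thus comprised 1 gene lower on both arrays, 2 higher on both and 1 that was mixed, and none passed the test. Over all genes 30.3% were lower and 38.1% higher on both arrays, and a split of this kind is near that background.

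CDKN3 (NM_005192) had the lowest ratios. Its 1 probe, A_23_P48669, is listed at hg18 chr14:53948134-53952385, a span of 4252 bp where the other inhibitor probes span 60. With siRNA 1 its ratio was -0.89 and with siRNA 2 it was -1.62, which left 53.9% and 32.5% of the signal with Non-T siRNA. The mean was -1.26 ± 0.20 (SE, n = 2, limma adjusted p = 0.113). Counted from the lowest ratio of 19218 genes, CDKN3 ranked 166 with siRNA 1 and 31 with siRNA 2. With a single spot on each array it has no spread among spots.

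**Figure D2:**
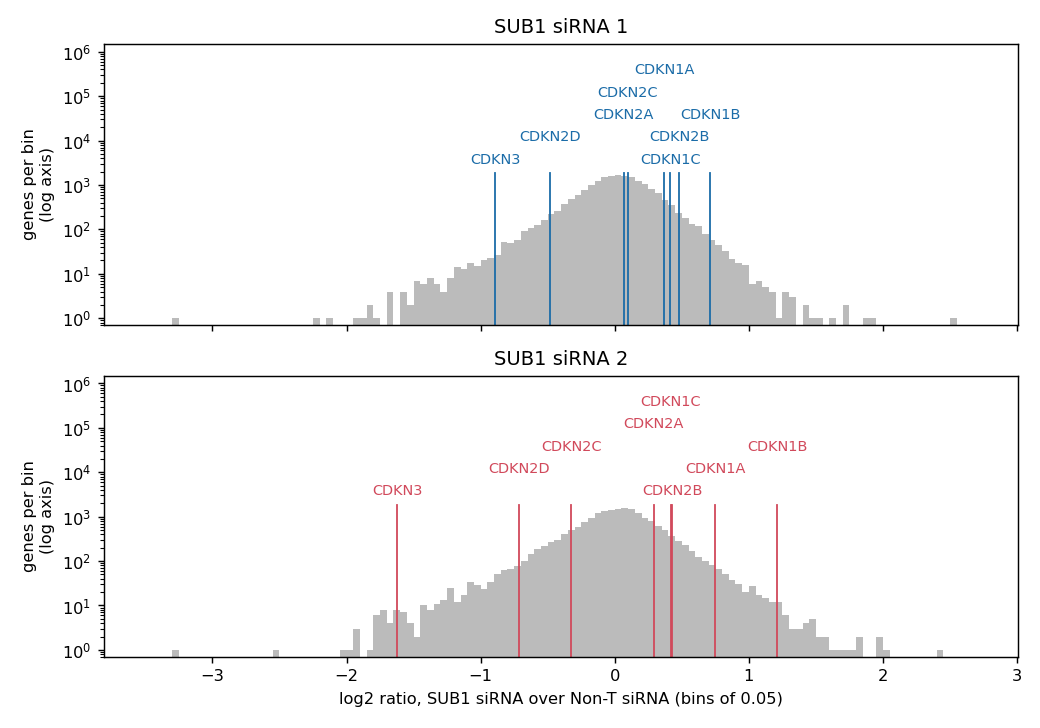
Histogram of the log2 ratios of all 19218 genes on each array (vertical axis logarithmic), with a line at each inhibitor. CDKN1B and CDKN3 lie in the outer parts of the distribution with both siRNAs, and CDKN2A and CDKN2C lie near its centre with siRNA 1.

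The siRNAs differed most for CDKN3, whose ratio was lower by 0.73 with siRNA 2 than with siRNA 1. For CDKN1B the ratio was higher by 0.50, for CDKN1A by 0.38 and for CDKN2A by 0.22 with siRNA 2. These values are of the probe that stood for the gene, and on the second probe of CDKN1B the ratio was higher by only 0.067. The ratio of CDKN2C was lower with siRNA 2 by 0.42 and that of CDKN2D by 0.23. CDKN2B and CDKN1C differed by 0.052 and 0.0027, less than the typical SD between arrays. Each siRNA was measured on 1 array, and these differences have no test.

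Both arrays carried Non-T RNA in the Cy3 channel, and the channels can be compared one by one. After normalization the log2 Cy3 signal of CDKN3 was 11.68 beside siRNA 1 and 11.69 beside siRNA 2, and its Cy5 signal was 10.79 and 10.07. For CDKN1B the Cy3 signals were 8.68 and 8.70 and the Cy5 signals 9.39 and 9.91. On these probes the gap between siRNAs was therefore seen in the Cy5 channel, that of the knockdown cells, for both genes. CDKN1A was similar, with 8.60 and 8.56 in Cy3 and 8.97 and 9.31 in Cy5. The second probe of CDKN1B did not share the gap, with 7.20 and 7.13 in Cy3 and 7.48 and 7.47 in Cy5. On the probes that stood for the 8 genes the Cy3 signals differed between the arrays by -0.043 to 0.087, beside an SD of 0.12 over all genes. The Cy5 signals differed by -0.73 to 0.52, beside an SD of 0.31 over all genes.

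**Figure D3:**
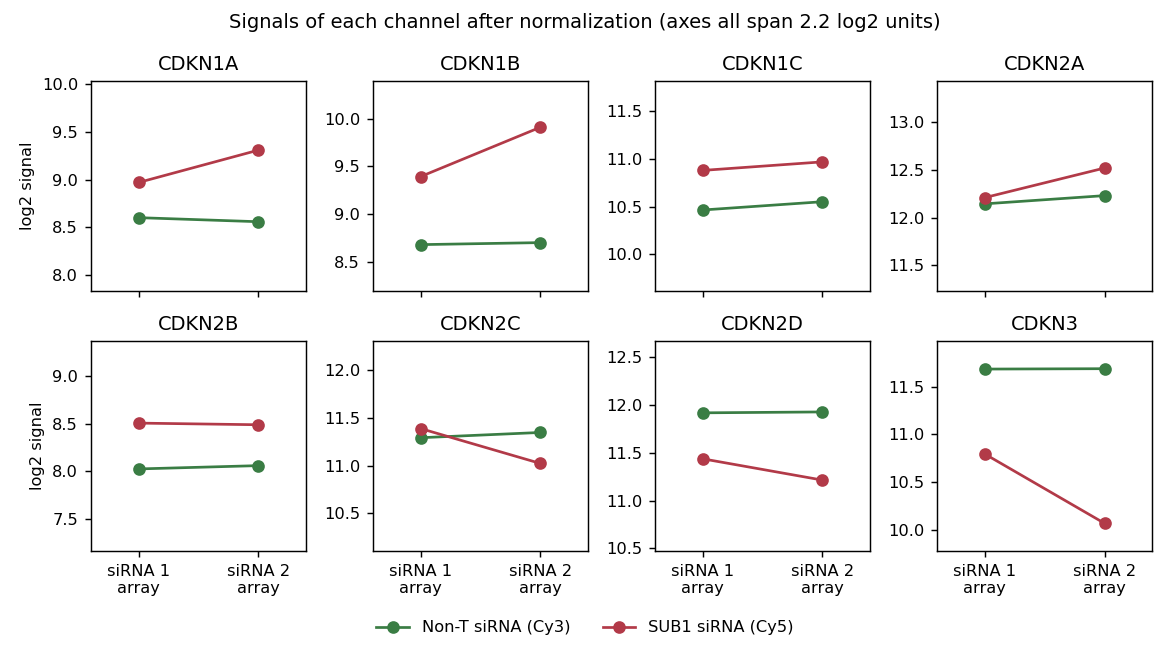
Log2 signal of each channel on each array for the probe that stands for each gene, with every vertical axis spanning the same number of log2 units. The green Non-T lines are close to flat for all 8 genes, and the red SUB1 siRNA lines part from them most for CDKN3 and CDKN1B on the siRNA 2 array.

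Lists of genes around the inhibitors were described next, and they were chosen with earlier results of these data known. Their shares beside all genes are therefore description only. The first list held the cyclins and kinases that the inhibitors bind. Of 13 genes 11 were measured (CCND2 and CCNA1 did not pass the filter). Their median log2 ratio was -0.31 with siRNA 1 and -0.50 with siRNA 2, against 0.02 over all genes on each array, and it stayed below 0 under all 10 treatments of the signals. With no filter on dim probes it was -0.15 and -0.18, and with siRNA 2 it was -0.23 where probes were averaged and -0.26 with median centring. With siRNA 2 all 11 had a ratio below 0, beside 46.4% of all genes, and with siRNA 1 there were 7, beside 45.9%. At least 2-fold lower on both arrays were 3, beside 0.14% of all genes, and none was at least 2-fold higher. They were CDK1, the kinase of mitotic entry (-1.04 and -1.76), and its partners cyclin B1, CCNB1 (-1.08 and -1.0), and cyclin B2, CCNB2 (-1.21 and -1.74). The 2-fold call on both arrays was kept under 7 of 10 treatments for CDK1, 5 for CCNB1 and 9 for CCNB2. The reported treatment is among the 10. With median centring all 3 genes lost the call. CCNB1 lost it under every treatment with another signal, background correction or scaling. It kept the call only as reported and where the filter, the outlier spots or the averaging of probes was changed. No gene of this list passed limma's test, and the adjusted p was 0.112 for each of these 3 genes. Above 0 with siRNA 1 were 4 genes, named here after their values were seen. They were CCNE1 (0.62 and -0.17), CCND1 (0.39 and -0.50), CCND3 (0.18 and -0.18) and CCNE2 (0.02 and -0.13).

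Genes known for the turnover or localisation of p21, p27 and p57 were near the centre of the array as a list. All 20 were measured, with medians of -0.08 and -0.04. The largest mean ratios were those of CDC20, an activator of the anaphase-promoting complex (-0.93 and -1.21), UHMK1, a kinase that acts on p27 (-0.82 and -0.73), and CKS1B, the cofactor with which SKP2 recognises p27 (-0.80 and -0.65). CDC20 alone was past 2-fold, with siRNA 2. The adjusted p in limma's test was 0.112 for each. Under other treatments the weakest ratios with siRNA 2 were -1.04 for CDC20, -0.22 for UHMK1 and -0.29 for CKS1B. With siRNA 1 they were -0.75, -0.50 and -0.46. SKP2 itself, named here after its values were seen, had -0.11 with siRNA 1 and -0.70 with siRNA 2.

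Of 31 transcription factors and chromatin proteins known to act on the CDKN genes 29 were measured. The medians were -0.10 and -0.04. FOXM1, a factor that drives mitotic genes, was at least 2-fold lower on both arrays (-1.07 and -1.24). The call was kept under 7 of 10 treatments, the reported one included, with siRNA 1 at -0.90 where it was weakest. It was lost for median spot signals, for median centring and for the authors' log2 ratios. MYBL2, a partner of the MuvB complex, was lower by that much with siRNA 2 only (-0.92 and -1.31). Both had an adjusted p of 0.112. EZH2, the methyltransferase that represses the INK4 locus, had -0.23 and -0.73 (adjusted p = 0.195), and its ratio with siRNA 1 was 0.0029 at its highest under other treatments.

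The pocket proteins and their partners, which act downstream of the inhibitors, had medians of -0.03 and 0.05 over 12 of 12 genes, and none was past 2-fold. The largest mean ratios were those of the repressor E2F4 (-0.49 and -0.74, adjusted p = 0.120), of RBBP4 (0.38 and 0.37, adjusted p = 0.153) and of LIN52 (0.17 and 0.49, adjusted p = 0.234), both parts of the MuvB complex. The medians of the turnover, transcription and pocket lists changed sign on at least 1 array under another treatment of the signals.

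**Figure D4:**
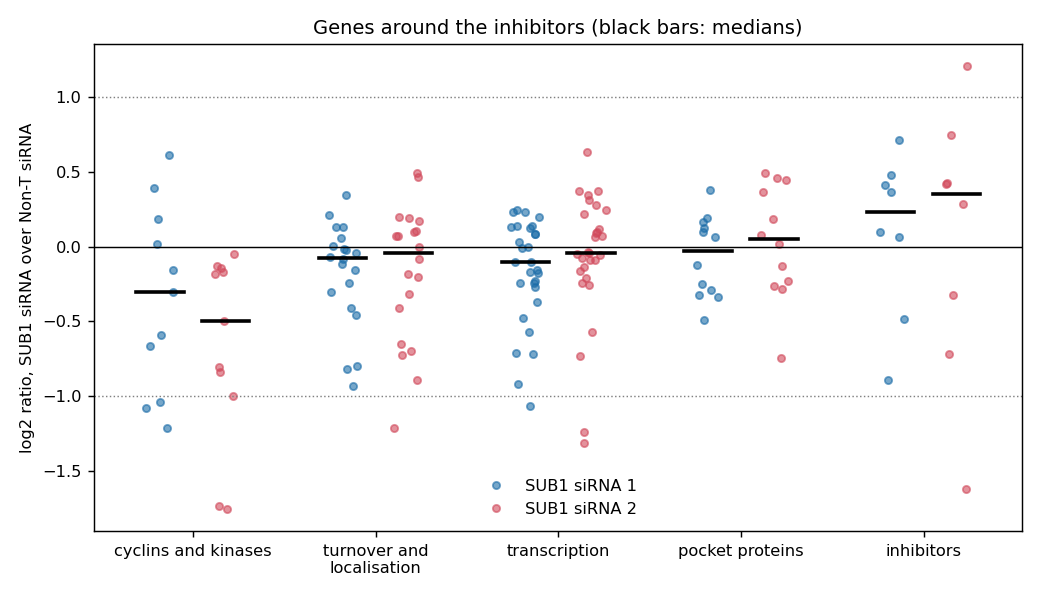
Log2 ratio of each gene of the 4 pathway lists and of the 8 inhibitors with SUB1 siRNA 1 (blue) and siRNA 2 (red). Black bars are medians and dotted lines mark 2-fold. The cyclins and kinases lie lowest, with 3 genes below the lower line with both siRNAs, and the inhibitors are the widest spread with siRNA 2.

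Genes whose ratios lay nearest to those of CDKN1B and CDKN3 were searched by the distance in the plane of both log2 ratios. The search covered 11591 genes that were well above background in both channels on both arrays and had a gene symbol listed by RefSeq. Nearest to CDKN3 were SPC25 (-0.92 and -1.64, distance 0.036), CIT (-0.86 and -1.57, distance 0.065) and CDCA8 (-0.83 and -1.58, distance 0.073). Nearest to CDKN1B were H2AC21 (0.76 and 1.25, distance 0.059), ZFYVE26 (0.73 and 1.13, distance 0.082) and FAM13A (0.80 and 1.22, distance 0.082). The likeness rests on 2 values for each gene, and the search was made under the reported treatment only. Under other treatments the lowest ratios were 0.26 and 0.51 for H2AC21 and 0.37 and 0.81 for ZFYVE26. They were 0.77 and 1.15 for FAM13A, and 0.49 and 0.78 for CDKN1B itself.

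**Figure D5:**
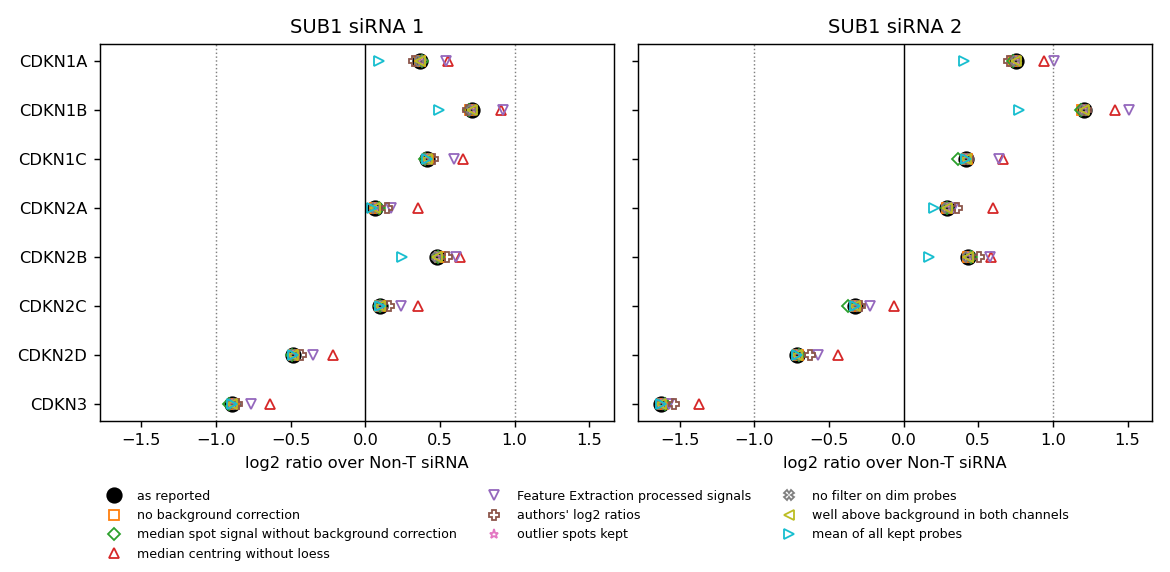
Log2 ratio of each inhibitor with each siRNA as reported (black) and under 9 other treatments of the signals. Dotted lines mark 2-fold. The sign of each of the 16 values was kept, CDKN1A with siRNA 2 reached 1.01 with the processed signals, and CDKN1B with siRNA 2 was 0.78 where all its probes were averaged.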

How the data were processed

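RNA of PC3 cells was hybridised to 2 dual-colour arrays. The deposited scanner files hold spot intensities made by the authors with Feature Extraction 9.5.1.1, and probe positions are per the file headers on hg18. The authors also deposited log2 ratios, normalized by loess per array, which were used as an alternative. From the mean intensities, background was corrected with normexp (offset 50, which shrinks the ratios of dim probes), ratios were normalized by loess (span 0.3) within each array, 112 and 100 outlier spots were left out, and repeated spots were averaged by probe. Probes entered where a share of 0.5 or more of their spots rose well over background, in either channel, on both arrays (25673 probes). The brightest probe stood for the gene. The mean ratio was tested against 0 with limma 3.58.1 (R 4.3.3), which leaves out the spread of the control. The scripts were tested on simulated data. With 2 arrays and no replicate of a siRNA, the number of arrays limits the precision. Each SE and p-value rests on the spread between these arrays, drawn by limma towards that of all genes. Nothing in the sources used here describes separate cultures of a group.

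All probes of the inhibitors are named, with the largest mean ratios of each pathway list, genes of the lists past 2-fold, and the nearest genes in both ratios. Members and lists were chosen with earlier results of these data known. Alternatives were other signals, scalings, filters and probe summaries, an intensity trend in the test, and each array alone.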

Additional observations from a re-analysis of the deposited data

How the results depend on the processing

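Under the alternatives to background, scaling, filter, probe summary and test, 7 of the 8 inhibitors kept the sign of their mean ratio and none passed an adjusted p of 0.05 in limma's test. CDKN2C turned from -0.11 to 0.14 with median centring without loess and to 0.0082 with processed signals, and the cause was not tested. With 1 array left out there is no test, and the values of the remaining array ran from 0.37 to 0.75 for CDKN1A, from 0.71 to 1.21 for CDKN1B, from 0.42 to 0.42 for CDKN1C, from 0.07 to 0.29 for CDKN2A, from 0.43 to 0.48 for CDKN2B, from -0.33 to 0.10 for CDKN2C, from -0.71 to -0.48 for CDKN2D and from -1.62 to -0.89 for CDKN3. CDKN1B and CDKN3 pass 2-fold with siRNA 2 and not with siRNA 1, and CDKN1B loses that call, at 0.78, where its probes are averaged.

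Counts of genes moved most with median centring and with processed signals, and the latter change background correction and scaling together. With median centring without loess, 2-fold increases numbered 137 and decreases 56 for siRNA 1. They numbered 266 and 101 for siRNA 2, and 44 and 10 for both at once. With the processed signals these were 983 and 214, 1244 and 347, and 427 and 55. With the authors' log2 ratios 18 genes were at least 2-fold higher with both siRNAs. The number of genes under an adjusted p of 0.05 was 0 when background was not corrected, for median spot signals, for median centring, for processed signals and for the authors' log2 ratios. Under these 5 alternatives limma gave between 4023 and 5707 genes at an unadjusted p under 0.05. No paired analysis was possible because each siRNA was measured on 1 array and each array is its own comparison, and a block for the slide was impossible because both arrays lay on it. The second probe of CDKN1A was not well above background in Cy3, which limits its ratio.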
